A study of Saccharomyces cerevisiae with 50 samples.

Results

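The 7 genes described here encode Cdc28, the cyclin-dependent kinase that drives the budding yeast cell cycle, and the proteins that bind, activate or inhibit it. They are CDC28 (YBR160W), CKS1 (YBR135W), CAK1 (YFL029C), SIC1 (YLR079W), FAR1 (YJL157C), SWE1 (YJL187C) and MIH1 (YMR036C), chosen by name and function from the 6204 open reading frames on the arrays. All 7 were on the arrays, and 1 of their values was missing. The cells were of the laboratory strain W303, held in G1 with alpha factor, the mating pheromone, and then released into the rich medium YEPD. Total RNA of 25 time points, 5 min apart and spanning 2 cell cycles up to 120 min, was set against RNA of an asynchronous YEPD culture of optical density 0.6. Each of the 50 arrays carried a time point and the reference in opposite dyes. Replicate 1 labelled the sample with Cy3 and replicate 2 labelled it with Cy5. The series' design text calls this dye swap technical and names no second culture, so a time point counts once and the p-values reflect scatter around a single course.

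Cdc28 protein is present through the whole cycle and is active only with a cyclin bound. Cks1 is a small subunit that helps the kinase to its substrates, and Cak1 phosphorylates the activation loop of Cdc28. Sic1 blocks kinase bound to B-type cyclins until its own destruction at the start of S phase, and Far1 blocks kinase bound to G1 cyclins when cells sense pheromone. Swe1 phosphorylates a tyrosine of Cdc28 and thereby holds back mitosis, and Mih1 is the phosphatase that removes that phosphate. Much of this control acts on proteins, which arrays do not measure.

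Values are log2 ratios of sample over reference, so 0 is the level in asynchronous cells and 1 unit is a 2-fold difference. They say how the level of a gene moved, not how its abundance compares with that of another gene. RNA came from whole cultures, in which fewer cells with a transcript and less transcript per cell cannot be told apart. The direction and the log base of the deposited ratios are not given in the sources used here. Both were inferred, and all signs and folds below rest on that reading. At 0 min the 6 genes specific to MATa cells lay between 0.73 and 4.60 log2 units, and the 4 specific to MATalpha cells lay between -0.21 and 0.29. Over all open reading frames the arrays of a pair correlated with a median r of 0.472 (0.196 to 0.673 over 25 pairs). Dates in the labels, whose meaning is not given there, form 2 batches in replicate 1, changing between 55 and 60 min, and 6 in replicate 2.

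The first question was which of the 7 genes moved with the cell cycle. The fitted swing from trough to peak was 3.02-fold to 5.79-fold for the transcripts of the 3 inhibitors, SIC1, FAR1 and SWE1. For those of the kinase and its activators, CDC28, CKS1, CAK1 and MIH1, it was 1.09-fold to 1.27-fold. By limma's moderated F test on a cosine with a period of 66 min, 4 of the 7 genes were periodic at an adjusted p under 0.05, against 33.7% of all open reading frames. They were the 3 inhibitors and MIH1. In each dye orientation fitted alone, SIC1, FAR1 and SWE1 passed, 3 of the 7 genes against 16.5% of all open reading frames. The median amplitude, the fitted distance from mean to peak, was 0.17 log2 units over the 7 genes and 0.14 over all open reading frames.

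**Figure D1:**
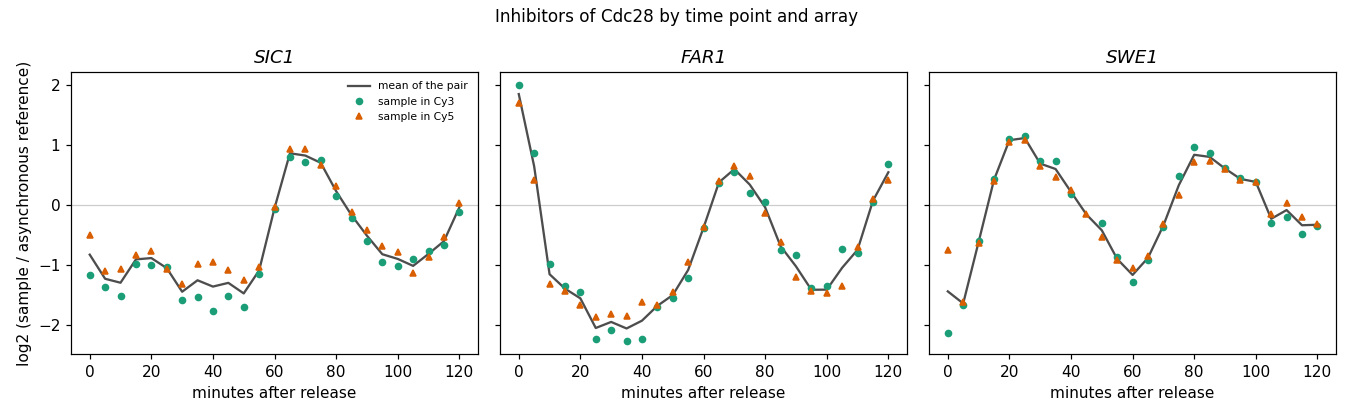
Log2 ratio of sample over asynchronous reference (vertical axis) of SIC1, FAR1 and SWE1 against minutes after release. Points are single arrays with the sample in Cy3 or Cy5 and lines are pair means. SIC1 stays below 0 until it climbs to 0.85 at 65 min, FAR1 starts at 1.84 and returns to 0.59 at 70 min, and SWE1 is highest at 25 and 80 min.

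SIC1, the inhibitor of B-type cyclin kinase, was low throughout the first cycle and came up around 60 min. With the sample in Cy3 its lowest, median and highest values were -1.78, -0.99 and 0.79, and with the sample in Cy5 they were -1.32, -0.79 and 0.92. From 0 to 55 min all 24 arrays lay below 0. The pair mean then went from -1.10 at 55 min through -0.06 at 60 min to 0.85 at 65 min, a 3.87-fold step over 10 min. This was its steepest climb. At 65 min the arrays read 0.79 and 0.92, at 70 min 0.71 and 0.92, and at 75 min 0.74 and 0.65. These 3 time points were the only ones in which both arrays lay above 0, apart from 80 min with 0.14 and 0.30. SIC1 was back at -1.02 by 105 min and stood at -0.05 at 120 min, the last time. The fitted amplitude was 0.80 ± 0.11 log2 units (SE over 25 time points) with its peak at 5.94 ± 1.40 min, and the limma adjusted p was 2.56e-05. SIC1 ranked 121 of 6204 by amplitude. That fitted peak reflects the high values at 65 to 75 min, since the pair means at 5 and 10 min were -1.24 and -1.30. Without the linear time term of the fit, the amplitude was 0.56 ± 0.16 log2 units (limma adjusted p = 0.0302).

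The swing of SIC1 was larger in the second cycle. Fitted by cycle, the amplitude was 0.17 log2 units from 0 to 55 min and 0.88 from 60 to 115 min. The shape differed between the cycles (limma F test on the interaction, adjusted p = 3.97e-04). Within date batches SIC1 passed in the 60 to 120 min arrays of replicate 1 (adjusted p = 5.50e-04) and not in the 0 to 55 min arrays of replicate 1 (adjusted p = 0.313) or the 5 to 60 min arrays of replicate 2 (adjusted p = 0.0660). With date batch as a term over all arrays it passed, with an amplitude of 0.58 log2 units (adjusted p = 7.10e-05).

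FAR1, the inhibitor that acts in the pheromone response, had the widest range of the 7 genes, 15.0-fold between its highest and lowest pair means. Its lowest, median and highest values were -2.28, -0.85 and 2.00 with the sample in Cy3, and -1.87, -1.22 and 1.69 with the sample in Cy5. In pheromone-arrested cells at 0 min the arrays read 2.00 and 1.69, both the highest of their orientation. At 10 min they read -0.99 and -1.33, an 8.01-fold lower pair mean. FAR1 then stayed between -2.07 and -1.09 from 10 to 55 min. It came back in the second cycle, from -1.09 at 55 min to 0.37 at 65 min and 0.59 at 70 min. A later climb went from -1.42 at 95 min to 0.54 at 120 min, so FAR1 was high in 3 separate stretches of the course.

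The fitted amplitude of FAR1 was 1.27 ± 0.16 log2 units (SE, n = 25), a 5.79-fold swing with its peak at 0.936 ± 1.38 min (limma adjusted p = 1.48e-05), rank 25 of 6204. Without 0, 5, 10 and 15 min the amplitude was 1.04 ± 0.08 and the adjusted p was 4.23e-08. The pattern was called in each of the 3 date batches with at least 12 time points (adjusted p from 4.71e-05 to 0.0068).

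SWE1, the kinase that inhibits Cdc28, was low at 0 and 5 min and high at 20 to 25 and 80 to 85 min. Its lowest, median and highest values were -2.14, -0.02 and 1.15 over 24 arrays with the sample in Cy3, and -1.63, 0.03 and 1.07 over 25 with the sample in Cy5. The value at 45 min with the sample in Cy3 was missing, so that time point rests on 1 array (-0.17). SWE1 went from -1.65 at 5 min to 0.41 at 15 min, a 4.17-fold step, and reached 1.11 at 25 min, where the arrays read 1.15 and 1.07. It was down to -1.17 at 60 min and back at 0.83 at 80 min, where they read 0.95 and 0.70. The arrays disagreed most at 0 min, with -2.14 and -0.75, and the Cy5 array of that time was the only one of its date batch. The lowest value of SWE1 was thus at 0 min in Cy3 and at 5 min in Cy5. The fitted amplitude was 0.95 ± 0.11 log2 units (SE, n = 25), a 3.72-fold swing with its peak at 26.0 ± 1.28 min (limma adjusted p = 4.63e-06), rank 72 of 6204. Within the 3 date batches the adjusted p lay between 1.97e-05 and 1.79e-04.

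In the fit over both cycles the peak of SWE1 came 20.0 min after that of SIC1 (95% interval 16.3 to 23.7 min), with the errors of the genes taken as independent. The size of this gap depended on the fit, and within date batches the peaks lay closer. For SIC1 and SWE1 they were at 11.5 and 23.4 min (replicate 1, 0 to 55 min) and 3.87 and 17.4 min (replicate 1, 60 to 120 min). In replicate 2 from 5 to 60 min they were at 12.2 and 24.7 min. Only the 60 to 120 min batch called SIC1. The highest pair mean of SWE1 in the second cycle was at 80 min. The order of FAR1 and SIC1 was less settled. The fitted peak of SIC1 lay 5.01 min after that of FAR1 (1.16 to 8.86 min), but the highest pair mean of the second cycle was at 65 min for SIC1 and at 70 min for FAR1. Fitted within the 60 to 120 min arrays of replicate 1, the peaks were at 3.87 min for SIC1 and 2.02 min for FAR1. Within the 0 to 55 min arrays of replicate 1, where SIC1 was not called, they were at 11.5 min for SIC1 and 56.5 min for FAR1, late in the period before. Across the 25 time points SIC1 and FAR1 had a Pearson r of 0.621 (Spearman rho 0.702), FAR1 and SWE1 an r of -0.607 (rho -0.556), and SIC1 and SWE1 an r of -0.046 (rho -0.002). These correlations are descriptions, since successive time points of a culture are not independent and all genes share the same arrays.

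**Figure D2:**
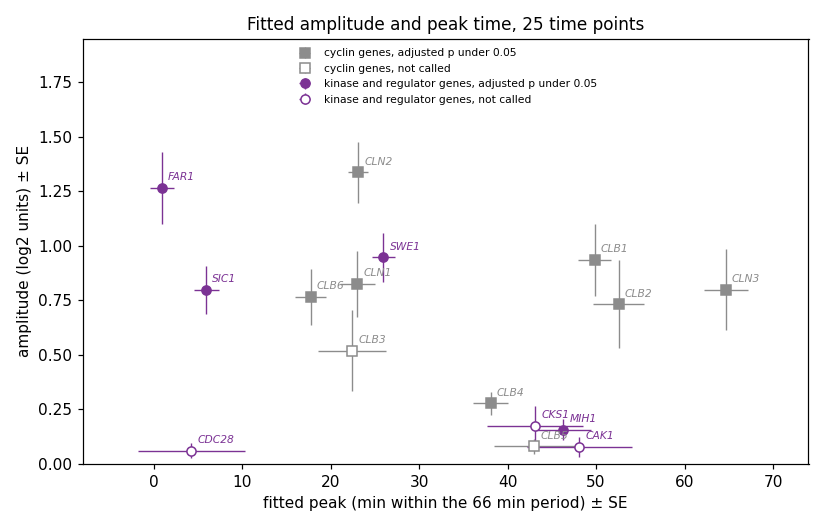
Fitted amplitude in log2 units (vertical axis) against the fitted peak within the 66 min period (horizontal axis) of the 7 genes and the 9 cyclin genes of Cdc28, with standard errors from 25 time points. Filled symbols passed the limma F test. FAR1, SIC1 and SWE1 stand at 1.27, 0.80 and 0.95, while CDC28, CKS1, CAK1 and MIH1 lie at or below 0.17.

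CDC28, the kinase itself, stayed within a 1.53-fold range of pair means. Its lowest, median and highest values were -0.25, 0.05 and 0.34 with the sample in Cy3, and -0.25, 0.25 and 0.53 with the sample in Cy5. The 12 arrays from 0 to 25 min lay between 0.21 and 0.53, all above the reference. The mean then went from 0.25 at 40 min to -0.05 at 45 min and -0.06 at 50 min. From 65 to 75 min it averaged 0.18 ± 0.05 (SD, n = 3 time points), and from 80 to 105 min -0.03 ± 0.11 (SD, n = 6). The cosine had an amplitude of 0.06 ± 0.04 log2 units and did not pass (limma adjusted p = 0.372). The upper 95% limit of the swing was 1.20-fold for a cosine shared by both cycles. Fitted by cycle, the amplitudes of CDC28 were 0.17 and 0.13 log2 units, with peaks at 13.8 and 63.2 min. The course was alike in both dyes, and the orientations correlated with r = 0.813 (rho 0.888) over 25 time points, against a median r of 0.497 for all open reading frames.

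CKS1, the small kinase subunit, showed a single deep value. At 80 min it read -3.29 in Cy5, while its Cy3 partner read 0.32. The other 24 arrays with the sample in Cy5 lay between -0.40 and 0.29, and the 25 with the sample in Cy3 lay between -0.11 and 0.46. The amplitude was 0.17 ± 0.09 log2 units (limma adjusted p = 0.307), and without that value, an alternative chosen after seeing the data, it was 0.05 (adjusted p = 0.407). CKS1 had its lowest values outside that array in arrested cells, with -0.11 and -0.40 at 0 min.

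CAK1, which encodes the activating kinase, kept a pair mean between -0.10 and 0.27 from 0 to 100 min. Its lowest, median and highest values were -0.38, -0.07 and 0.55 with the sample in Cy3, and 0.01, 0.15 and 0.99 with the sample in Cy5. The highest pair means were 0.54 at 105 min and 0.45 at 115 min, followed by 0.27 at 0 min and 0.25 at 110 min. The amplitude was 0.08 ± 0.04 log2 units (limma adjusted p = 0.364). For this cosine, shared by both cycles, the upper 95% limit of the swing was 1.26-fold. Fitted by cycle, the amplitudes of CAK1 were 0.07 and 0.23 log2 units.

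MIH1, which encodes the phosphatase that opposes Swe1, passed the periodicity test by a narrow margin. Its amplitude was 0.16 ± 0.05 log2 units (SE, n = 25), a 1.24-fold swing with its peak at 46.3 ± 3.13 min (limma adjusted p = 0.0400). That is 20.3 min after SWE1 (95% interval 13.7 to 27.0 min). Its lowest, median and highest values were -0.98, -0.32 and 0.04 with the sample in Cy3, and -0.40, 0.02 and 0.97 with the sample in Cy5. Fitted alone, neither orientation passed (adjusted p = 0.388 in Cy3 and 0.0799 in Cy5), and the orientations correlated with r = 0.074 (rho 0.302). The MIH1 call was lost in 22 of 45 alternative settings, among them 10 of the 25 in which a single time point was left out.

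**Figure D3:**
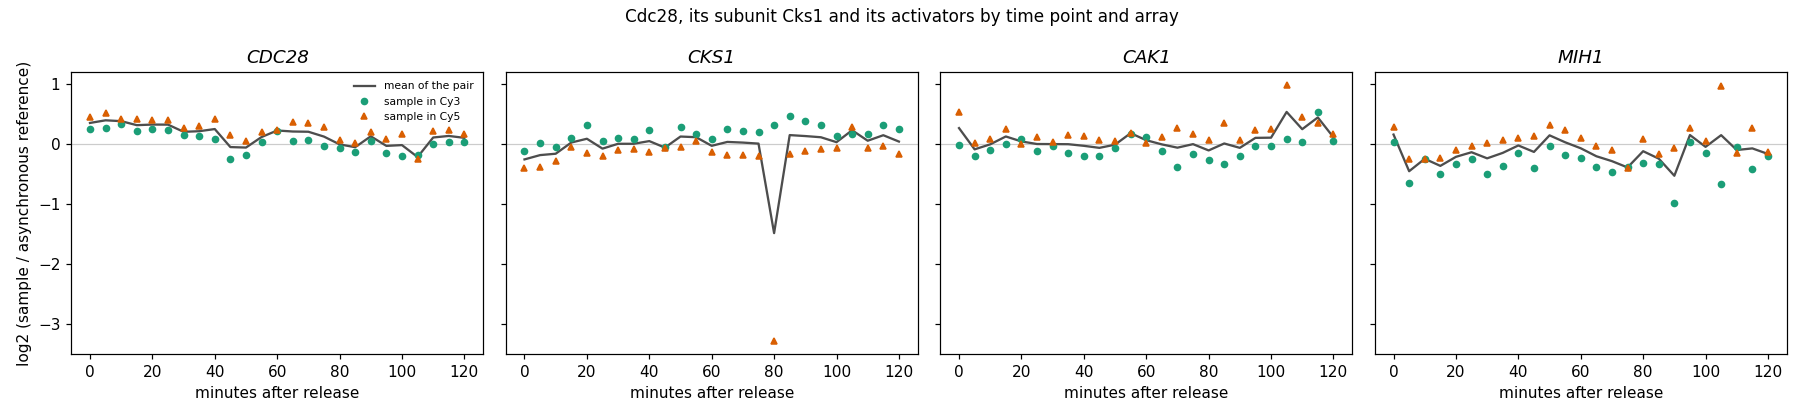
Log2 ratio of sample over asynchronous reference (vertical axis) of CDC28, CKS1, CAK1 and MIH1 against minutes after release. Points are single arrays and lines are pair means. CDC28 drifts from 0.36 at 0 min to 0.11 at 120 min, the CKS1 array at 80 min with the sample in Cy5 reads -3.29, and CAK1 and MIH1 have their highest Cy5 values, 0.99 and 0.97, at 105 min.

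The array at 105 min with the sample in Cy5 was the only one of its date batch and stood apart for several of these genes. Set against the mean of its neighbours in time, MIH1 was 1.02 log2 units higher on it, CAK1 0.64 higher and CDC28 0.44 lower (-0.44), in each case the largest such gap of 23 time points. On the Cy3 array of 105 min the same gaps were -0.58, 0.08 and -0.08. Without 105 min alone the amplitude of CAK1 was 0.07 log2 units, and MIH1 kept its call (limma adjusted p = 0.0433). Without 105, 110 and 115 min the amplitude of CAK1 was 0.03 log2 units and the limma adjusted p of MIH1 was 0.0519. SIC1, FAR1 and SWE1 then kept amplitudes of 0.76, 1.30 and 0.96.

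The balance of the dyes was read from the mean of the 2 deposited ratios of a time point, which is 0 without dye bias. It differed from 0 for 5 of the 7 genes by limma. It leaned to Cy5 for 4 of them, against 32.3% of all open reading frames, and to Cy3 for 1, against 14.3%. The largest lean to Cy5 was that of MIH1, 0.18 ± 0.03 log2 units (SE, n = 25 pairs, adjusted p = 1.03e-04), more than its fitted amplitude. CDC28 leaned by 0.10 ± 0.01 (adjusted p = 3.99e-07) and read higher with the sample in Cy5 at 24 of 25 time points, CAK1 by 0.13 ± 0.02 and SIC1 by 0.11 ± 0.02. CKS1 leaned to Cy3 (-0.21 ± 0.07, adjusted p = 0.0098). That mean includes its 80 min pair, with 0.32 in Cy3 and -3.29 in Cy5, the largest gap of its 25 time points. CKS1 read higher with the sample in Cy5 at 1 of 25 time points. The bias of FAR1 (0.00 ± 0.03) and SWE1 (0.02 ± 0.03) did not pass. A bias that is constant cancels in the pair mean.

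The second comparison set the cycle that followed pheromone arrest (0 to 55 min) against the next one (60 to 115 min), 12 time points each. SIC1 and FAR1 stood higher in the second cycle and CDC28 lower. The rises and falls given are the cycle term of a fit with a sine and cosine common to both cycles. They therefore differ slightly from the gap between the plain means. The mean level of SIC1 went from -1.18 to -0.20, a rise of 0.96 ± 0.13 log2 units or 1.94-fold (limma adjusted p = 6.05e-05). That of FAR1 went from -1.16 to -0.45, a rise of 0.66 ± 0.22 log2 units (adjusted p = 0.0374). CDC28 went from 0.23 to 0.07 and fell by 0.17 ± 0.05 log2 units, to 0.889 of its first level (adjusted p = 0.0229). Of the 7 genes 2 were thus called higher, against 10.3% of all open reading frames, and 1 lower, against 10.5%. The rise of FAR1 was not called without 105, 110 and 115 min (0.50, adjusted p = 0.166) or with Cy5 samples alone (adjusted p = 0.0625). The fall of CDC28 was not called without 0, 5, 10 and 15 min (-0.15, adjusted p = 0.113), with Cy5 samples alone (adjusted p = 0.0530) or over 12 differences of times 65 min apart (adjusted p = 0.0727). In replicate 1 the date batch changed together with the cycle, and in replicate 2 between 60 and 65 min, so apart from that 1 time point no batch held both cycles, and batch and cycle cannot be told apart.

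Differences between times 65 min apart, close to the fitted period, show where in the cycle these gaps lay. SIC1 was higher at the later time in 12 of 12 comparisons, by 0.34 to 2.05 log2 units, with the widest gap between 5 and 70 min. FAR1 was higher in 10 of 12, by up to 1.63, and 1.47 lower at 65 than at 0 min (-1.47). CDC28 was lower in 10 of 12, with a median of -0.21. SWE1 was higher in 7 of 12, and its largest gap was 1.30 between 5 and 70 min. Over the 12 differences limma gave an adjusted p of 0.0025 for SIC1, 0.0378 for FAR1 and 0.0727 for CDC28.

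**Figure D4:**
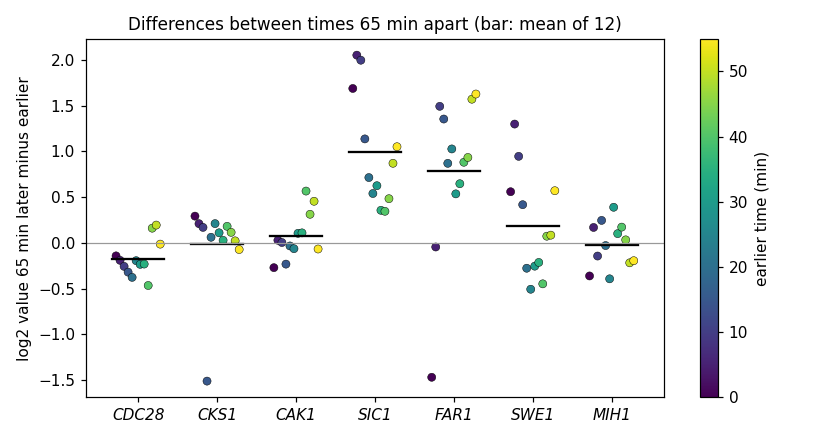
Difference in log2 units between the pair mean at a time and that 65 min before it (vertical axis) for each of the 7 genes. Each point is 1 of 12 pairs of times, coloured by the earlier time in minutes, and bars are means. All 12 points of SIC1 lie above 0, and the lowest point of FAR1, -1.47, belongs to 0 and 65 min.

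The shape of the course differed between the cycles for 4 of the 7 genes by the limma F test, against 23.4% of all open reading frames. Besides SIC1 these were SWE1, with an amplitude of 1.26 and then 0.85 log2 units and a fitted peak at 29.0 and then 23.3 min (adjusted p = 0.0214), CAK1 (0.07 and 0.23, adjusted p = 0.0159) and CDC28 (0.17 and 0.13, with fitted peaks at 13.8 and 63.2 min, adjusted p = 0.0377). With Cy5 samples alone SWE1, CAK1 and CDC28 were not called (adjusted p = 0.133, 0.187 and 0.248). The amplitude of FAR1 was 1.40 and then 0.85, and its shape did not pass (adjusted p = 0.372).

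The third comparison took the first 4 time points after release (0, 5, 10 and 15 min) against the same phase a cycle later (65, 70, 75 and 80 min), matched in time. SIC1 was lower right after the arrest. It averaged -1.07 ± 0.23 (SD, n = 4 time points) from 0 to 15 min and 0.65 ± 0.29 from 65 to 80 min, and fell short by 1.72 ± 0.17 log2 units (-1.72, or 0.304 of the later level, limma adjusted p = 0.0091). Without 5 and 70 min or without 10 and 75 min, the adjusted p was 0.0555 or 0.0548. The highest of its 8 early arrays, -0.50, lay below the lowest of its 8 later arrays, 0.14. SWE1 averaged -0.83 ± 0.94 and -0.02 ± 0.75, and was also lower early at matched times (-0.81 ± 0.16, or 0.572 of the later level, adjusted p = 0.0411). Set against 60 to 75 min in place of 65 to 80 min, the difference of SWE1 was -0.31 (adjusted p = 0.222). Its call was also lost in 3 of 4 fits that left out a matched pair. Of the 7 genes 2 were called lower early, against 3.92% of all open reading frames, and 0 higher, against 6.24%. By limma's unadjusted p, 1 of the 7 was higher early at the same threshold, near the 16.0% of all open reading frames. It was CDC28, with a difference of 0.23 ± 0.07 log2 units (adjusted p = 0.103). FAR1 gave -0.33 ± 0.52 (adjusted p = 0.700), since 0 min lay above and 10 and 15 min below their later counterparts. Early and later arrays came from different date batches in both orientations, so batch and cycle cannot be told apart.

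Genes whose course was most like that of an inhibitor were found by Pearson r over the 25 pair means, a description over time points of a shared culture. Closest to SIC1 were the Pho85 cyclin gene PCL9 (r = 0.962), DSE3 (0.922), the cell wall gene PIR1 (0.908), the daughter cell glucanase gene DSE4 (0.904) and EGT2 (0.899), which acts in cell separation. Each reached at least 0.840 in either orientation alone. Closest to FAR1 were TEC1, a transcription factor gene of filamentous growth (0.924), the proteasome chaperone gene NAS6 (0.891), the proteasome subunit gene PRE4 (0.880), the a-factor transporter gene STE6 (0.867) and GPA1 (0.866), which encodes the G protein subunit of the pheromone receptor. TEC1, STE6 and GPA1 reached at least 0.825 in either orientation alone. NAS6 had an r of 0.841 in Cy3 and 0.720 in Cy5, and PRE4 0.734 and 0.774. SWE1 had many like courses, with 114 open reading frames at an r of at least 0.8, against 24 for SIC1 and 18 for FAR1. Its closest were the mannosyltransferase gene PMT3 (0.971), TOS6 (0.967), SVS1 (0.966), MNN1 (0.964) and TOS4 (0.959). For MIH1 no open reading frame reached an r of 0.8, and the closest were PAP2 (0.744), ADY4 (0.736), UPA1 (0.734), TAH18 (0.707) and BAS1 (0.694), with r of 0.230 to 0.494 in Cy3 alone.

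Among the transcription factors known to act on SIC1, FAR1 or SWE1, 4 of 6 were periodic, against 33.7% of all open reading frames. SWI5, which activates SIC1 at the end of mitosis, was highest at 50 min (1.09), while SIC1 was highest at 65 min (0.85). The fitted peak of SWI5 was at 51.4 min. Like SIC1, SWI5 was lower at 0 to 15 than at 65 to 80 min (-0.93, limma adjusted p = 0.0409). SWI4, an activator of G1 genes, peaked at 15.9 min, before SWE1. STE12, which activates pheromone genes, and MCM1 did not pass (limma adjusted p = 0.253 and 0.333).

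**Figure D5:**
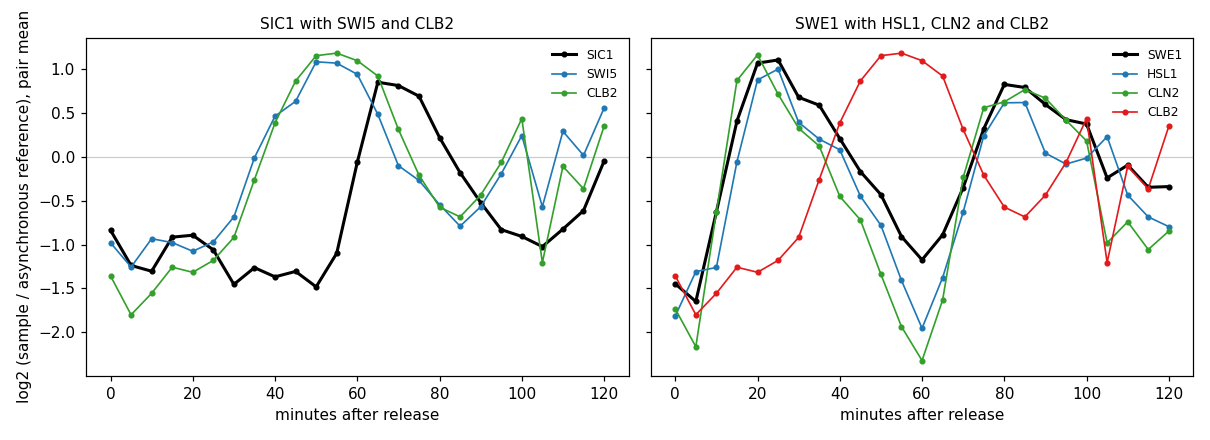
Pair means in log2 units (vertical axis) against minutes after release for SIC1 with SWI5 and CLB2 (left) and for SWE1 with HSL1, CLN2 and CLB2 (right). SIC1 is highest at 65 min, after the high of SWI5 at 50 min. SWE1 and HSL1 are both highest at 25 min.

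Of 7 genes for proteins at the bud neck that recruit Swe1 or mark it for destruction, 6 were periodic. The share of all open reading frames was 33.7%. The median amplitude of the 7 was 0.83 log2 units, against 0.14 over all open reading frames. KCC4, HSL1 and GIN4, related kinases of the neck, had amplitudes of 1.12, 1.02 and 0.93 and peaks at 17.5, 26.2 and 23.9 min, beside the 26.0 min of SWE1. CDC5, the polo kinase of mitosis, peaked at 51.9 min with an amplitude of 0.83. CLA4 did not pass (limma adjusted p = 0.0585).

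CDC4, CDC53, SKP1 and HRT1 belong to the ubiquitin ligase that marks Sic1 and Far1 for destruction, and CDC34 encodes its conjugating enzyme. These genes gave 0 of 5 periodic by limma, against 33.7% of all open reading frames. At an unadjusted limma p under 0.05 they gave 3 of 5, against 43.4%. Their amplitudes reached 0.17 log2 units. Among other cyclin-dependent kinases, SSN3 and BUR1 were periodic, 2 of 5, near the 33.7% of all open reading frames. Their amplitudes were 0.11 and 0.15 beside the 0.06 of CDC28. Of 3 other inhibitor genes 2 were periodic, against 33.7% of all open reading frames, namely CIP1 (0.29) and PHO81 (0.20). The cyclins of Cdc28 gave 7 of 9, against the same 33.7%, led by CLN2 at 1.34 log2 units, and CLB5 and CLB3 did not pass. Of 3 genes of mitotic exit and the anaphase-promoting complex, CDC20 (0.88, peak at 59.2 min) and CDC14 (0.20) were periodic, again against 33.7%.

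Phosphatases and casein kinases that act on Cdc28, Swe1 or Mih1 gave 4 of 11 periodic, near the 33.7% of all open reading frames, namely ZDS2 (0.35), PPH22 (0.22), YCK1 (0.21) and PPH21 (0.18). RTS1 and TPD3, subunits of protein phosphatase 2A, stood higher at 0 to 15 than at 65 to 80 min (0.57 and 0.38 log2 units, limma adjusted p = 0.0157 and 0.0369), and PTC2 lower (-0.34, adjusted p = 0.0407). The chaperone genes CDC37, YDJ1 and HSP82 were lower in the second cycle, 3 of 3 against 10.5% of all open reading frames, by 0.24, 0.21 and 0.25 log2 units (differences of -0.24, -0.21 and -0.25, adjusted p from 0.0122 to 0.0167). CDC37, whose product stabilises Cdc28, was also higher right after release (0.43, adjusted p = 0.0270). Partners of Far1 in pheromone signalling gave 2 of 5 periodic, near the 33.7% of all open reading frames, namely BEM1 (0.39) and CDC24 (0.16). Over all 10 lists 31 of 57 genes were periodic, against 33.7% of all open reading frames. Their median amplitude was 0.20 log2 units, against 0.14 over all open reading frames.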

How the data were processed

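Two-colour arrays of 25 time points were read from the deposited value table of log ratios. No scanner, background correction or normalization by the authors is named in the labels. These deposited values were read as log10 of Cy5 over Cy3, since they end exactly at -2 and 2 and the dye-swap arrays ran opposite (median r of -0.472 before replicate 1 was turned). High pheromone-response transcripts at 0 min make sample over reference the likely direction. The least alike arrays of an orientation had r = 0.0753 in Cy3 and 0.0466 in Cy5, and medians of arrays ranged from -0.0046 to 0.0345 on the log10 scale. The number of arrays limits the precision.

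Of 6217 lines, 13 controls or incomplete names were left out. Of the 6204 open reading frames, 5704 matched the R64 gene table, used for names. Among the values were 438 missing and 709 at the limit, none of the latter from the 7 genes. Values were converted to log2 and averaged over the pair. R 4.3.3 with limma 3.58.1 gave moderated tests over all open reading frames, adjusted by Benjamini-Hochberg and called below 0.05. Periodicity was an F test on sine and cosine at 66 min beside a linear term, with peak errors from the delta method. Cycles were compared by interaction and cycle terms, and release by differences within 4 matched times. The 66 min came from an earlier analysis of these data, and 32 other cell cycle genes gave 64 min. On simulated data for 6204 genes the periodicity test recovered 94% of amplitudes of 1 log2 unit and 70% of 0.25.

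The 7 genes and the 10 lists were chosen with earlier results of these data known. One listed gene is not reported here and was left out of the counts of its list. The naming rule took all 7 genes, the 5 most correlated open reading frames of each periodic one, and up to 4 passing genes of each list by amplitude; other listed genes named here were chosen after their values were seen. Alternatives covered period, harmonics, trend, dye orientation, date batch, scaling, the limit, correlated errors and time points left out.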

Additional observations from a re-analysis of the deposited data

Results flagged for a closer look

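The fitted course of 4 genes differed between the cycles by the limma interaction test. For SIC1 the amplitude was 0.71 log2 units larger in the second cycle, and the call held under all 5 alternatives tried for it (adjusted p from 5.16e-05 to 0.0042). For SWE1 the amplitude difference, second minus first cycle, was -0.40, with -0.58 to -0.16 over 5 alternatives. For CAK1 it was 0.17, with 0.05 to 0.25 over 5 alternatives, and the lowest was without 105, 110 and 115 min. Both also lost the call under some of them. For CDC28 it was -0.04 (-0.07 to 0.00 over 5 alternatives), and 3 of them lost the call, while the fitted peaks lay at 13.8 and 63.2 min. The test takes sine and cosine together, so the differences in amplitude alone were not tested. A time point held 2 arrays, too few to test a single array as an outlier.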

How the results depend on the processing

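Among the alternatives to the reported values, 476 kept their side of the threshold or stayed within 1.5 times of a count. Another 45 lost the call, 13 moved a count by over 1.5 times and 1 was counted as reversed. Results that were not called could change sign within the 476, as the release difference of FAR1 did (-0.934 to 0.0539). The causes were not tested. FAR1 and SWE1 kept their periodicity call in every alternative run, and SIC1 in 43 of 45. The exceptions of SIC1 were the 0 to 55 min batch of replicate 1 (limma adjusted p = 0.313) and the 5 to 60 min batch of replicate 2 (0.066). MIH1 lost its call at 72 min (0.137), with 2 harmonics (0.152), with date batch as a term (0.413), within the 3 batches (0.596, 0.856 and 0.237), with lag-1 correlated errors (0.0549), without 105, 110 and 115 min (0.0519) and without 0, 5, 10 and 15 min (0.0556). Leaving out a single time point gave MIH1 0.0157 to 0.0905, and a single orientation 0.0799 to 0.388. Replicate numbers are dye orientations in accession order. Same-numbered deviations from the pair mean correlated with a median r of 0.150 (-0.043 to 0.485 over 300 pairs of arrays). Arrays of an orientation thus shared a part of their deviations. With a replicate block MIH1 had an adjusted p of 0.107, and 2263 open reading frames were periodic against 2089 without it. Within batches of replicate 1 the periodic count was 834 from 0 to 55 min and 678 from 60 to 120 min.

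The count differing in shape, 1451, was 677 at a period of 60 min, 711 without 105, 110 and 115 min and 794 to 1061 in single orientations. At 60 min the shape had an adjusted p of 0.245 for CDC28, 0.0729 for CAK1 and 0.284 for SWE1. Without 105, 110 and 115 min it was 0.0566 for CDC28 and 0.213 for CAK1. Single orientations gave 0.022 to 0.248 for CDC28, 0.0288 to 0.187 for CAK1 and 0.0211 to 0.133 for SWE1.

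The count differing in level, 1286, was 840 over 12 differences and 763 to 1143 in single orientations. The level of CDC28 was -0.145 without 0, 5, 10 and 15 min, -0.173 over 12 differences and -0.175 to -0.164 in single orientations. That of FAR1 was 0.497 without 105, 110 and 115 min and 0.613 to 0.714 in single orientations. That of CKS1, -0.01 in the mean, was -0.185 in Cy5 and 0.160 in Cy3, where it was called higher (adjusted p = 0.0408).

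The release count, 630, was 965 with unmatched groups, 23 to 419 with a matched pair left out and 195 to 575 in single orientations. SWE1 gave -0.806 unmatched (adjusted p = 0.327), -0.305 against 60 to 75 min, -0.935 to -0.641 with a pair left out and -1.03 to -0.581 in single orientations, and SIC1 gave -1.91 to -1.61 and -1.86 to -1.58.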
